A study of Homo sapiens with 9 samples.

Results

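The lysosome genes described here are 50 of the 18293 genes counted in both deposited tables. They were chosen by name, as genes whose symbol begins like a subunit of the V-type proton pump (ATP6V0 or ATP6V1), single-letter cathepsins (CTS plus a letter), and 20 listed lysosomal hydrolases, membrane proteins and regulators, with pseudogenes left out. They comprise 7 subunits of the membrane sector V0 of the pump, 11 of its peripheral sector V1, 10 cathepsins, 7 glycosidases or sulfatases, 4 lipid hydrolases or their activators, 6 membrane or cholesterol-export proteins, 1 further peptidase (TPP1) and 2 transcription factors. The remaining 2 matched the symbol pattern only: ATP6V0E2-AS1, an antisense transcript, and ATP6V1G2-DDX39B, a read-through transcript. CTSL1 and CTSL2, older symbols of 2 cathepsins, fell outside the pattern, as did 4 pseudogenes of pump subunits.

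RNA was sequenced from HMEC-1, an immortalised line of human microvascular endothelium, grown in medium with 5.5 mM glucose. The 3 groups, of 3 libraries each, were AMI-1 at 100 µM, AMI-5 at 100 µM, and a control that received the solvent DMSO alone, all with an exposure of 16 h. Each compound was dissolved in DMSO as well, and the series presents both as drugs that inhibit methyltransferases. Separate cultures are not stated in the labels, and p-values then cover only the spread among these libraries, which may be technical.

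The lysosome is the acidic compartment in which cells break down proteins, glycans and lipids taken up from outside or delivered by autophagy. The V-type ATPase pumps protons across its membrane, and the cathepsins and other hydrolases need the low pH to work. Many of these genes are activated by TFEB and TFE3, related transcription factors that bind the palindrome TCACGTGA, known as the CLEAR element, and that are held in the cytoplasm when the kinase mTORC1 is active.

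Total counts over the shared genes ran from 14451343 to 24691456 per library. Of the 13 endothelial markers listed, 11 were tested; PECAM1 and CLDN5 were not among the genes tested. Their summed level was 906.2 to 1336 CPM (counts scaled to library size) in control, 981.8 to 1278 with AMI-1 and 746.9 to 1052 with AMI-5. In the edgeR fit with replicate number as a block, 6 of the 11 fell and 1 rose with AMI-5 (7.51% and 3.44% of all genes); 4 fell and 1 rose with a GC correction added, and 0 passed without the block (1 at an unadjusted p under 0.05). Of 9 leukocyte markers 2 were tested, CD14 and CD68 (itself a lysosomal protein), with a sum of 28.79 to 49.04 CPM, and 0 of them passed with AMI-5 in the blocked fit (1 at an unadjusted p under 0.05), while 1 passed as higher with the GC correction. Of 8 smooth muscle and pericyte markers 7 were tested (sum 497.9 to 895 CPM), of which 1 was lower with AMI-5 in the blocked fit, and 1 higher and 0 lower with the GC correction. All libraries come from the HMEC-1 line, so these markers are given as levels in its cultures, not as amounts of separate cell types. Whether only part of a culture expressed them was not tested. In bulk RNA, fewer cells expressing a marker and less of its RNA per cell cannot be told apart. Libraries of one replicate number share a code in their labels, whose meaning is not stated. Control replicate 2 stood apart from the other controls, as described with the members' values below. In the AMI-1 group the split was less plain. Over all genes tested, the deviation of AMI-1 replicate 3 from its group mean correlated at 0.204 with that of control replicate 2. It correlated at -0.456 with that of control replicate 1 and at 0.45 with that of control replicate 3.

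Motifs of TFEB and TFE3 were read in the RefSeq promoter table (assembly GRCh38.p14, while the counts were made on hg19), in windows from 250 bases before to 50 bases after each start. A window was found for 35 of the 50 genes. TCACGTGA, which reads the same on both strands, stood in 7 of the 35 (20.0%), against 344 of 35116 promoters in the table (0.98%). Its core CACGTG, which every such match contains, stood in 11 of the 35 (31.4%), against 2548 of 35116 (7.26%). The 7 promoters with the palindrome are shown because they carry the element these regulators bind; each stretch lies before the start, reads 5′ to 3′ on the gene's strand, and has the palindrome in capitals. They lie at chr16:67481165-67481243 (minus strand) for ATP6V0D1, chr9:114587684-114587762 (plus) for ATP6V1G1, chr20:45891283-45891334 (plus) for CTSA, chr17:80101478-80101556 (plus) for GAA, chr16:88857070-88857148 (minus) for GALNS, chr13:113297184-113297238 (plus) for LAMP1 and chr19:7522556-7522623 (plus) for MCOLN1.
ATP6V0D1: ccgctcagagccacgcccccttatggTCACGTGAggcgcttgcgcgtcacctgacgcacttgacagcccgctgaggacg
ATP6V1G1: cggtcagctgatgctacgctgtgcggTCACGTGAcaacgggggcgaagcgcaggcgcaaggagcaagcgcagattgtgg
CTSA: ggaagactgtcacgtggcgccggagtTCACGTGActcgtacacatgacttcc
GAA: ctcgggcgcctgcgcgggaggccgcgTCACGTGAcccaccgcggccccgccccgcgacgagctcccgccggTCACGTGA
GALNS: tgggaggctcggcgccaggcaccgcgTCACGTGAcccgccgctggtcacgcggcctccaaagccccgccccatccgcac
LAMP1: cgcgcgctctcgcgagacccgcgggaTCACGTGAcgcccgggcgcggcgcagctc
MCOLN1: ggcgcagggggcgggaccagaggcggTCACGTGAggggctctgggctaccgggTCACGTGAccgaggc

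In control cells the members spanned a wide range of levels, which are compared between genes as CPM per kilobase of the longest transcript (mean ± SD, n = 3). The highest was PSAP, the precursor of the saposins that help hydrolases reach their lipids, at 231.8 ± 27.2. ATP6V0C, the proton-carrying ring subunit of V0, followed at 174.5 ± 64.5, but 57.5% of its exon bases are shared on the same strand with RP11-20I23.1 (177.8 ± 54.0 CPM in control) and 14.6% with RP11-20I23.3. Reads over shared bases could be split between the genes or counted for each, and which was done is not given in the sources used here. The read-through ATP6V1G2-DDX39B stood at 133.4 ± 2.86, but 87.6% of its exon bases are shared with DDX39B, an RNA helicase gene. The cysteine proteases CTSB (119.5 ± 13.8) and CTSZ (116.3 ± 17.4) did not differ beyond their spread, nor did ATP6V1F (88.5 ± 14.7), the aspartic protease CTSD (86.1 ± 31.9) and the membrane glycoprotein LAMP1 (80.2 ± 8.15). Among the lowest were CTSO at 0.453 and CTSS, a cathepsin best known from antigen-presenting cells, at 0.555 CPM per kilobase. TFE3 stood at 28.9 ± 6.75 and TFEB at 5.57 CPM per kilobase. Together the members held 0.457% to 0.496% of the counts of a control library.

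**Figure D1:**
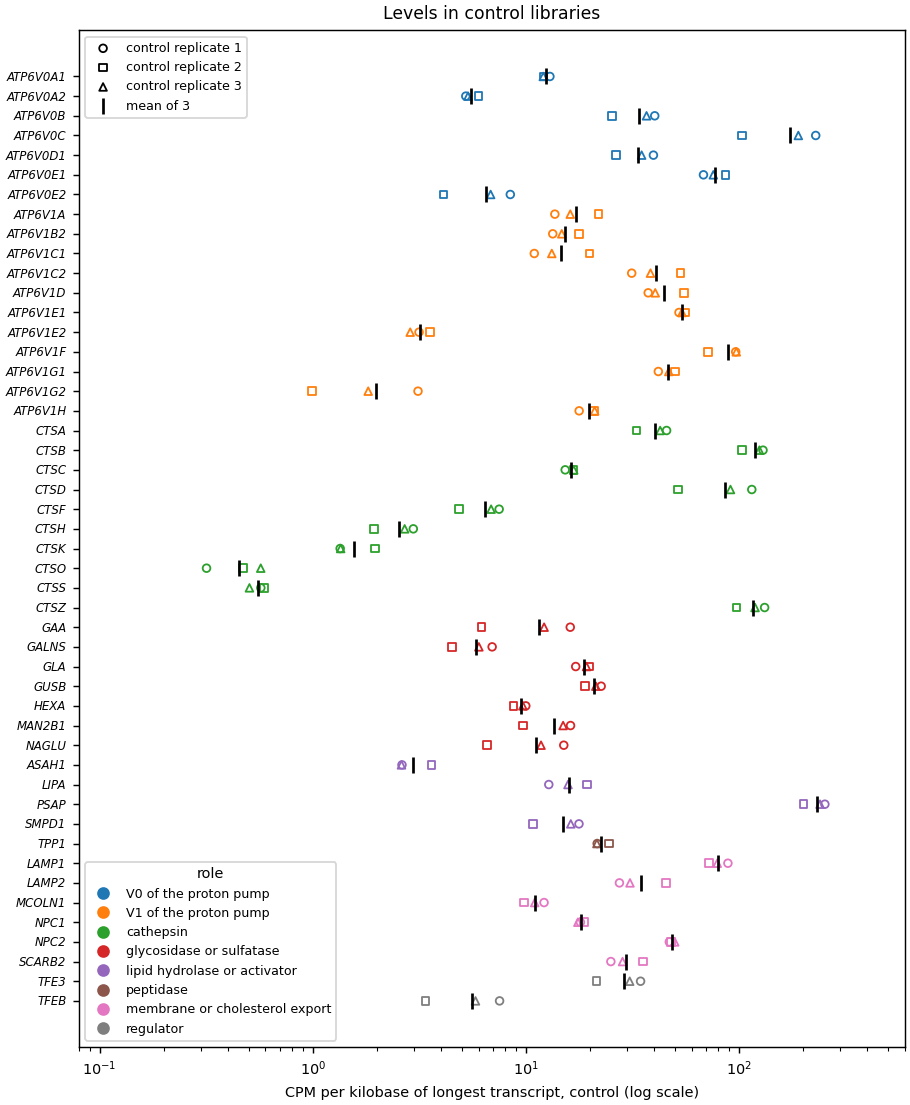
Level of 48 members in the 3 control libraries, in CPM per kilobase of the longest transcript on a log axis; the antisense and read-through transcripts are left out, symbols mark the replicate number, vertical bars the mean and colours the role. PSAP (231.8) and ATP6V0C (174.5) lie farthest right and CTSO (0.453) farthest left.

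The replicate number went with most of the variation of these genes. Of the sum of squares of their log2 CPM, 83.8% went with the replicate number and 9.5% with the treatment, against 77.2% and 11.1% over all genes, and the replicate number outweighed the treatment in 43 of the 50. Control replicate 2 was lower than the mean of control replicates 1 and 3 by the widest margin in ATP6V1G2 (a log2 difference of -1.22), GAA (-1.18) and ATP6V0E2-AS1 (-1.09). It was higher by the widest margin in ATP6V1C1 (0.72), LAMP2 (0.64) and ATP6V1C2 (0.62). Across the 50 genes this difference ran against the GC content of the transcript, with a Pearson r of -0.80 (-0.74 over 17505 genes); the genes share the same libraries, so r is a description. Libraries with the same number in the control and treated groups moved together, and the fit with the replicate number as a block is therefore used for the values below.

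AMI-1 left the lysosome genes close to control. In the blocked fit of edgeR's quasi-likelihood test, 0 of 50 members passed an adjusted p of 0.05, against 0.41% of the 18284 genes tested (75 genes). DESeq2 with the same block also called 0, and 3 members had an unadjusted p under 0.05 in edgeR (1851 of all 18284 genes). Without the block edgeR (0% of all genes) and DESeq2 called 0, and 0 members had an unadjusted p under 0.05 in edgeR. The median log2 fold change of the members was 0.019, with 30 above and 20 below 0, against -0.002 over all genes. The 95% interval lay inside a 1.5-fold change for 49 members, the exception being CTSO (0.49, adjusted p = 0.459). With AMI-5 it did so for 48, so this bound does not set the compounds apart. SCARB2, the receptor that carries glucocerebrosidase to lysosomes, had a log2 fold change of 0.16 ± 0.06 (SE, adjusted p = 0.327) and the acid lipase LIPA 0.15 ± 0.07 (adjusted p = 0.44). With a correction for GC content added to the block, SCARB2 (0.13, adjusted p = 0.0393) and CTSZ (0.12, adjusted p = 0.0472) passed as higher. These 2 of 50 (4%) compare with 1.3% of all genes called higher and 3.4% called in either direction.

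AMI-5 changed 6 of the 50 members in the blocked fit (12.0%), against 10.9% of all genes tested, so the share among lysosome genes was near the background. LIPA rose, and TFEB, TFE3, NAGLU, CTSB and ATP6V1G2-DDX39B fell; 1 of 50 higher compares with 3.44% of all genes and 5 of 50 lower with 7.51%. All 6 moved the same way in 3 of 3 replicate pairs, as did many of all genes tested (24.8% higher and 28.8% lower). The blocked fit that picked them tests differences within a number, so this is no separate support. DESeq2 with the block, on the same counts, called the same 6. Without the block edgeR called 0 members and 0 (0%) of all 18284 genes, DESeq2 called 0 members, and 0 members (485 of all genes) had an unadjusted p under 0.05. With the block, 16 of the 50 members and 4980 of all 18284 genes had an unadjusted edgeR p under 0.05. The latter is the background for the other blocked AMI-5 counts at an unadjusted p. The median log2 fold change of the members was -0.055, with 19 above and 31 below 0, against -0.005 over all genes, and it was -0.072, -0.035 and -0.032 in replicate pairs 1, 2 and 3. The median absolute log2 fold change was 0.111 for the members against 0.135 over all genes. The genes were not matched for expression level, so no difference in size is read from these medians.

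**Figure D2:**
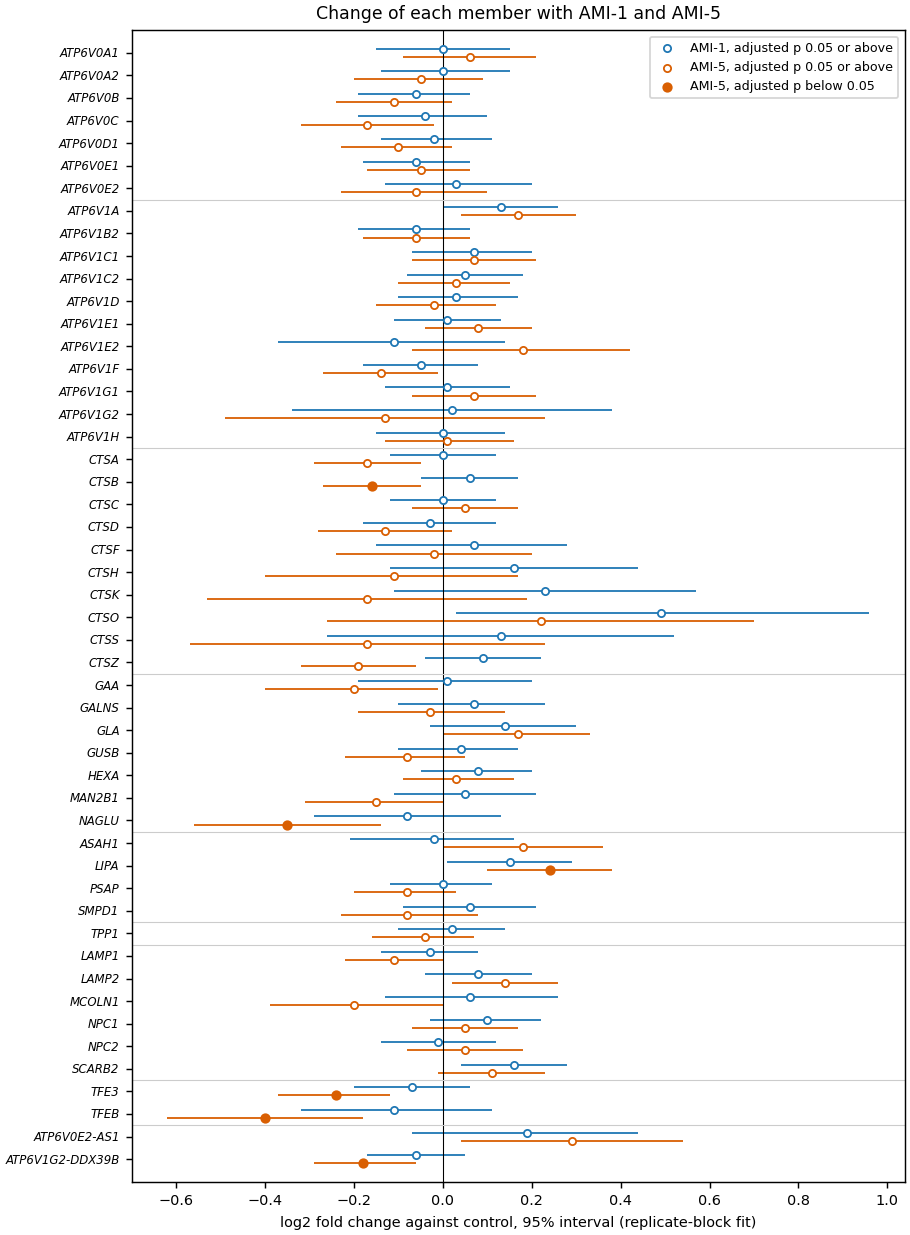
Log2 fold change against control of all 50 members with AMI-1 (blue) and AMI-5 (orange), with 95% intervals from the blocked fit; grey lines separate the roles, and filled points have an adjusted p below 0.05. The 6 filled points all belong to AMI-5, from TFEB (-0.40) to LIPA (0.24).

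Both transcription factors fell with AMI-5. TFEB was at 19.6, 8.77 and 15.1 CPM in control replicates 1, 2 and 3, at 16.6, 9.79 and 13.3 under AMI-1, and at 14.4, 6.17 and 12.2 under AMI-5. Within each number the AMI-5 library was the lowest of the 3, although the groups overlapped because replicate 2 was low throughout. The log2 fold change with AMI-5 was -0.40 ± 0.10 (SE, edgeR adjusted p = 0.0214), a level 0.760 times that of control, and with the GC correction it was -0.28 (adjusted p = 0.0322). TFE3, which shares targets with TFEB, was at 118.1, 73.3 and 105.0 CPM in control, 118.2, 71.8 and 92.6 under AMI-1, and 98.0, 61.6 and 90.5 under AMI-5. The same order held within every number for AMI-5 against control, with overlapping groups. Its log2 fold change was -0.24 ± 0.06 (adjusted p = 0.0171), and the call ended with the GC correction (-0.10, adjusted p = 0.0967).

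The promoters with the CLEAR palindrome included none of the 6 genes called in the blocked fit of all 9 libraries, of which NAGLU and CTSB have no window in the table. Of the 7 genes with the palindrome, 6 had a log2 fold change below 0 with AMI-5, from -0.20 (GAA, which degrades glycogen) to 0.07 (ATP6V1G1, a stalk subunit of V1), and 0 of 7 passed the test in that fit or in DESeq2 (3 had an unadjusted p under 0.05 in edgeR, as did 4980 of all 18284 genes). GAA and CTSA passed as lower in a blocked edgeR fit of AMI-5 and control alone. Their median was -0.11, against -0.055 for the 28 members whose window lacks it, and both medians were -0.01 with the GC correction. MCOLN1, the lysosomal calcium channel whose promoter holds 2 palindromes in the stretch shown, was at 27.4, 22.1 and 24.8 CPM in control, 28.6, 24.1 and 25.0 under AMI-1, and 23.3, 16.4 and 24.9 under AMI-5. Its AMI-5 library was lower in pairs 1 and 2 and level in pair 3, with a log2 fold change of -0.20 ± 0.09 (adjusted p = 0.18) that came to -0.02 with the GC correction. LAMP1, a major glycoprotein of the lysosomal membrane, was at 465.9, 381.0 and 415.1 CPM in control, 457.4, 379.6 and 401.1 under AMI-1, and 407.9, 356.1 and 405.6 under AMI-5. Each AMI-5 library was below its numbered control, by a log2 fold change of -0.11 ± 0.05 that did not pass (adjusted p = 0.193).

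Of the 18 subunits of the proton pump, 0 passed the edgeR test with AMI-5 in the blocked fit of all libraries, and 2 passed when AMI-5 and control were fitted alone (ATP6V1A higher, ATP6V0C lower). The 7 subunits of V0 had a median log2 fold change of -0.063 (6 below 0, 1 at an unadjusted p under 0.05) and the 11 of V1 a median of 0.025 (4 below 0, 2 at an unadjusted p under 0.05). DESeq2 with the block also called 0 subunits, and the GC correction called 1, ATP6V1B2 of the ATP-hydrolysing head (-0.16, adjusted p = 0.00684, against -0.06 without it). ATP6V0C was at 269.8, 121.8 and 223.6 CPM in control, 273.5, 127.7 and 191.6 under AMI-1, and 224.3, 105.7 and 214.9 under AMI-5. Replicate 2 was the lowest in every group, and the AMI-5 difference was -0.17 ± 0.07 (adjusted p = 0.125). ATP6V1A, the catalytic subunit, had a log2 fold change of 0.17 ± 0.06 (adjusted p = 0.0836) and was higher in 3 of 3 pairs. ATP6V1C2, the V1 subunit with the highest CPM, was at 97.5, 165.3 and 119.4 CPM in control, 101.0, 156.2 and 134.6 under AMI-1, and 105.4, 161.6 and 119.3 under AMI-5. Here replicate 2 was the highest in every group and the AMI-5 difference was 0.03 ± 0.06. Of its exon bases, 29.7% overlap PDIA6 on the other strand, and whether the counting used strand is not given in the sources used here.

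Among the 10 cathepsins, 8 had a log2 fold change below 0 with AMI-5 (median -0.143) and CTSB alone was called. CTSB, an abundant cysteine protease, was at 503.3, 402.3 and 483.9 CPM in control, 523.2, 440.5 and 480.7 under AMI-1, and 447.1, 357.7 and 437.4 under AMI-5. The AMI-5 library was the lowest within each number. The log2 fold change was -0.16 ± 0.05 (adjusted p = 0.0491), near the threshold, and -0.10 (adjusted p = 0.0293) with the GC correction. CTSZ had a log2 fold change of -0.19 ± 0.06 (adjusted p = 0.0604) and CTSA, which also protects lysosomal sialidase and galactosidase, one of -0.17 ± 0.06 (adjusted p = 0.064). CTSD, the main aspartic protease of lysosomes, was at 244.3, 110.4 and 194.0 CPM in control, 233.3, 122.9 and 170.7 under AMI-1, and 201.7, 103.5 and 192.6 under AMI-5. The largest contrast in these values was between replicates, and the AMI-5 difference was -0.13, with a 95% interval from -0.28 to 0.02 (adjusted p = 0.271). It changed sign with the GC correction (0.08, adjusted p = 0.154). Of the exon bases of CTSD, 41.7% are shared with RP11-295K3.1, so its reads could be split between the genes or counted for each.

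Among the glycan-degrading enzymes 1 of 7 fell. NAGLU, which removes N-acetylglucosamine residues from heparan sulfate, was at 38.4, 16.7 and 30.0 CPM in control, 35.7, 18.7 and 25.2 under AMI-1, and 27.5, 12.1 and 26.7 under AMI-5. The AMI-5 library was below control in each pair, by 0.48, 0.46 and 0.17 on the log2 scale, with overlapping groups. The log2 fold change was -0.35 ± 0.10 (adjusted p = 0.034), and the call ended with the GC correction (-0.14, adjusted p = 0.174). NAGLU had the highest transcript GC content of the members, 64.4%. HEXA, a subunit of hexosaminidase, was at 69.1, 60.4 and 67.0 CPM in control, 71.5, 65.7 and 69.8 under AMI-1, and 70.7, 61.2 and 69.0 under AMI-5. The ranges of the groups overlapped, with an AMI-5 difference of 0.03 ± 0.06.

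LIPA, the acid lipase that frees cholesterol and fatty acids from lipoprotein lipids, was the 1 member that rose with AMI-5. It was at 35.7, 53.9 and 43.9 CPM in control, 41.6, 56.6 and 49.8 under AMI-1, and 45.2, 63.0 and 49.5 under AMI-5. Both treated libraries were above control within every number, while the groups overlapped across numbers. The log2 fold change with AMI-5 was 0.24 ± 0.07, or 1.18-fold (adjusted p = 0.0249), and 0.18 (adjusted p = 0.0129) with the GC correction. The other lipid genes were not called: ASAH1, acid ceramidase, had 0.18 ± 0.09 (adjusted p = 0.193) and SMPD1, acid sphingomyelinase, -0.08 ± 0.07 (adjusted p = 0.52). PSAP was at 728.0, 577.9 and 691.0 CPM in control, 711.4, 627.3 and 646.9 under AMI-1, and 662.8, 549.6 and 670.8 under AMI-5. These ranges overlapped, and the AMI-5 difference was -0.08 ± 0.05 (adjusted p = 0.344).

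Of the 6 membrane and cholesterol-export genes, 0 were called with AMI-5 in edgeR, and 2 had an unadjusted p under 0.05. LAMP2, needed for fusion of autophagosomes with lysosomes, had a log2 fold change of 0.14 ± 0.06 (adjusted p = 0.126). NPC1 and NPC2, which hand cholesterol out of the lysosome, each had 0.05 ± 0.06. TPP1, a tripeptidyl peptidase, was at 100.6, 113.9 and 100.3 CPM in control, 101.1, 116.1 and 101.9 under AMI-1, and 100.3, 110.8 and 94.6 under AMI-5. All 9 values lay within a narrow band, and the AMI-5 difference was -0.04 ± 0.06.

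The read-through ATP6V1G2-DDX39B was at 265.4, 274.1 and 276.5 CPM in control, 251.3, 272.7 and 258.9 under AMI-1, and 249.0, 241.7 and 231.0 under AMI-5. It was the 1 member whose AMI-5 libraries were all below the controls (2% of members, against 3.36% of all genes), and 0 members lay wholly above (3.98% of all genes). The log2 fold change was -0.18 ± 0.05 (adjusted p = 0.0402), beside -0.17 ± 0.05 (adjusted p = 0.0437) for DDX39B itself, whose reads cannot be told apart from it over most of its length. ATP6V0E2-AS1 had 0.29 ± 0.12 (adjusted p = 0.121), and passed with the GC correction (0.41, adjusted p = 0.00711). It shares 26.3% of its exon bases with ATP6V0E2 on the other strand.

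**Figure D3:**
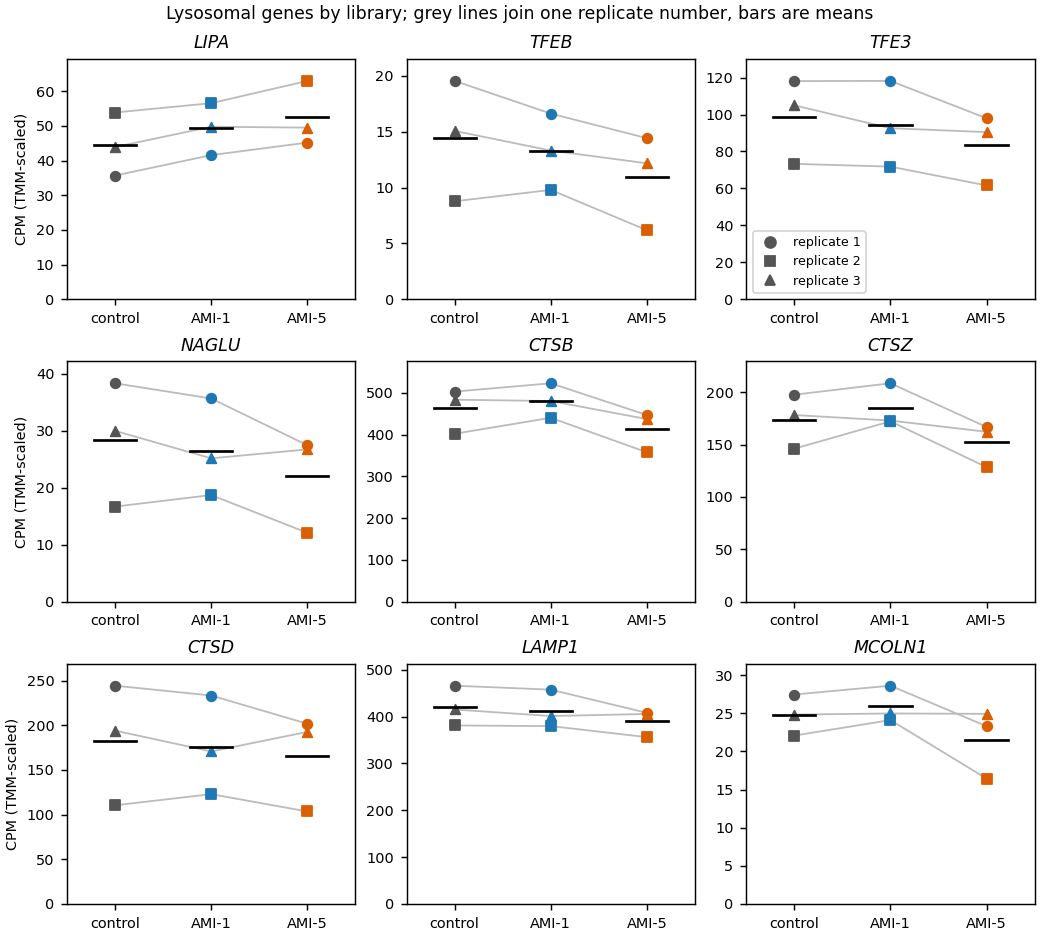
CPM of 9 members in every library by group, each axis starting at 0; symbols mark the replicate number, grey lines join libraries of one number, and short black bars are group means. LIPA lies above control in the AMI-5 library of every number, TFEB, TFE3, NAGLU, CTSB and CTSZ lie below it, and CTSD varies more between replicate numbers than between groups.

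The changes with AMI-5 ran along the GC content of the transcripts. Median GC content was 50.5% over the members (range 37.3% to 64.4%) and 48.1% over all genes; it was 57.7% for the members that fell and 42.8% for LIPA, and 58.8% and 41.5% for all genes called lower and higher. Across the 50 members the log2 fold change had a Pearson r of -0.61 and a Spearman rho of -0.64 with GC content (-0.39 and -0.47 over all genes), given as a description with no p because the genes share libraries. The correction uses GC content directly, and afterwards r was 0.08 and the median of the members was -0.009. It also gave 6 calls (12.0%, against 13.6% of all genes): LIPA, TFEB, CTSB and ATP6V1G2-DDX39B remained, TFE3 and NAGLU were lost, and ATP6V1B2 and ATP6V0E2-AS1 were added. In CPM without the GC correction, all 3 pairs were lower in 23 members (46%, against 28.8% of all genes) and higher in 11 (22%, against 24.8%). These pairs were not counted with the correction.

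**Figure D4:**
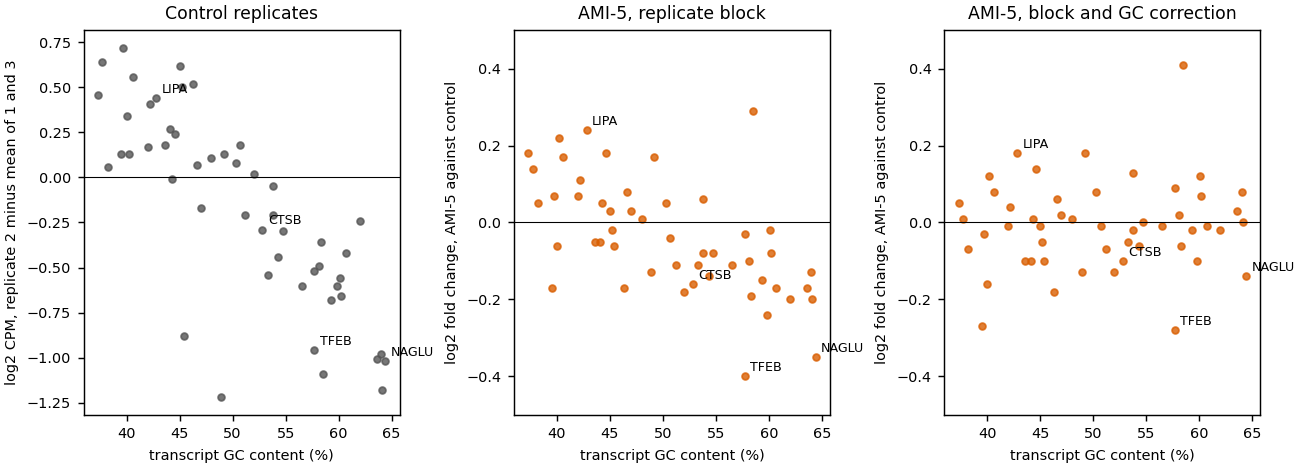
Transcript GC content of the 50 members (horizontal, percent) against the log2 difference of control replicate 2 from the other controls (left), the log2 fold change with AMI-5 in the blocked fit (middle) and the same with the GC correction (right). The downward slope of the left (r = -0.80) and middle (r = -0.61) panels is absent on the right (r = 0.08).

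The count of calls moved with single libraries and with the groups fitted. Leaving out 1 of the 9 libraries at a time, the AMI-5 count fell to 0 without control replicate 1, control replicate 3, AMI-5 replicate 1 or AMI-5 replicate 2, came to 3 when AMI-1 replicate 1 was dropped, and reached 12 after AMI-5 replicate 3 was dropped and 13 after AMI-1 replicate 3 was. A blocked fit of AMI-5 and control alone called 14 members: the 6 above, ATP6V1A, LAMP2 and SCARB2 as higher, and ATP6V0C, CTSA, CTSZ, GAA and MAN2B1 as lower. The shares of all genes called in these fits are not given here, so the counts are not a result particular to lysosome genes. The 9 fits include those without an AMI-1 library, which is not part of this comparison. LIPA, TFEB and TFE3 kept their calls in 5 of the 9 fits, with a highest adjusted p of 0.172, 0.19 and 0.161. Among the fits without a control or AMI-5 library, they kept them only without control replicate 2 or AMI-5 replicate 3. NAGLU kept its call in 4 (highest 0.275), CTSB in 3 (highest 0.284) and ATP6V1G2-DDX39B in 2 (highest 0.298). Among the fits without a control or AMI-5 library, CTSB kept its call only without AMI-5 replicate 3, and ATP6V1G2-DDX39B in none.

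Between the compounds, CTSZ and CTSB were lower with AMI-5 than with AMI-1, 2 of 50 members (4.0%) against 5.1% of all genes called in either direction and 3.48% called lower. CTSZ, a carboxypeptidase, was at 197.6, 146.0 and 178.2 CPM in control, 208.5, 172.2 and 172.9 under AMI-1, and 166.8, 128.4 and 162.2 under AMI-5. The libraries of the compounds did not overlap: the highest AMI-5 library was below the lowest AMI-1 library. The log2 difference of AMI-5 from AMI-1 was -0.28 ± 0.06 (adjusted p = 0.0132), and -0.18 (adjusted p = 0.000445) with the GC correction. For CTSB it was -0.22 ± 0.05 (adjusted p = 0.0165), and -0.18 (adjusted p = 0.000178) with the correction, with overlapping groups. Libraries did not overlap in 4 members, all lower with AMI-5 (8%, against 3.28% of all genes): CTSZ, CTSK, CTSS and the read-through transcript, and the last 3 were not called. Without the block, edgeR (0% of all genes) and DESeq2 called 0 members, and 0 had an unadjusted p under 0.05 in edgeR. Both calls were lost (0 members called) on leaving out AMI-1 replicate 1, AMI-1 replicate 2, AMI-5 replicate 1 or AMI-5 replicate 2. On leaving out AMI-1 replicate 3, 13 members were called, and on leaving out AMI-5 replicate 3, 5. The shares of all genes called in these fits are not given here. In a fit of only these 2 groups CTSZ alone was called. TFEB (-0.29, adjusted p = 0.128), TFE3 (-0.17, adjusted p = 0.115) and LIPA (0.09, adjusted p = 0.496) did not pass, so their AMI-5 changes are not shown to differ from those with AMI-1.

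In 7 further lists of lysosome-related genes, 124 genes were tested, and AMI-5 changed 12 of them (9.68%, 5 higher and 7 lower; all genes 10.9%). Of 29 other hydrolases and activators MANBA, a mannosidase, rose (0.44) and SGSH (-0.27) and HYAL2 (-0.25) fell, and of 11 pump partners TCIRG1, an alternative V0 subunit, fell (-0.31). Of 14 genes for hydrolase sorting GNPTG (-0.40), NAGPA (-0.30), which both make the mannose 6-phosphate tag, and GGA3 (-0.27) fell. TSC2, an inhibitor of mTORC1 signalling, was the 1 of 18 genes of that control that changed (-0.27). MAP1LC3B (0.26) and ULK2 (0.30) rose among 27 autophagy genes, and the protease inhibitors LXN (0.36) and SERPINB8 (0.23) among 7. Of 18 other membrane proteins 0 passed in edgeR, where 3 had an unadjusted p under 0.05. With the GC correction 20 of the 124 passed with AMI-5 (16.1%, against 13.6% of all genes), 12 higher and 8 lower. These were 9.68% and 6.45% of the lists, against 5.29% and 8.29% of all genes. Without the correction the shares were 4.03% and 5.65%, against 3.44% and 7.51% of all genes. The balance of directions thus turned within the lists, while over all genes the share called higher also grew. Of the 12 genes named here 7 remained, and the calls of SGSH, HYAL2, NAGPA, TSC2 and TCIRG1 were lost. Among the 29 other hydrolases and activators 6 were then higher and 1 lower, among the 11 pump partners 0 passed (0 at an unadjusted p under 0.05), and in the mTORC1 list 1 gene, RRAGA, passed as higher. Without the block edgeR called 0 of the 124, with 2 at an unadjusted p under 0.05. AMI-1 changed 0 of the 124 in the blocked fit (0.41% of all genes), with 15 at an unadjusted p under 0.05 (1851 of all 18284 genes). With the GC correction 4 passed (3.23%), all higher, against 1.3% of all genes called higher and 3.4% called in either direction. The 4 were FUCA1, GGH, HGSNAT and IDS, all among the 29 other hydrolases and activators (13.8% of that list), and 0 passed in the blocked fit without the correction.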

How the data were processed

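Poly-A RNA of 9 libraries was sequenced. The authors deposited raw read counts per gene in 2 tables, 1 for each compound, both holding the control libraries, whose values differed in 0 cases; 0 columns of other samples were found. BWA, bedtools and the build hg19 are named per the submitters' processing notes; no version, annotation or strand setting is given in the sources used here. Genes in both tables (18293) were fitted together in edgeR 4.0.16 (R 4.3.3) and tested by its quasi-likelihood F test, with TMM scaling and filterByExpr by group, which removed 9 genes, none of them a member. Adjusted p-values are Benjamini-Hochberg over all 18284 genes tested, with a threshold of 0.05. CPM are TMM-scaled.

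Replicate numbers are shared across groups. Each library's deviation from its group mean correlated at 0.431 to 0.871 with libraries of its own number (9 pairs) and at -0.804 to 0.204 with others (18 pairs), so the numbers were taken to pair the libraries, and the fit with the number as a block is reported beside that without it. The biological coefficient of variation was 23.7% without the block and 5.64% with it. Within a number the labels and column headers share a code (FC037, FC038 or FC044), whose meaning is not stated. The GC correction added to the block a lowess curve (span 0.3) of each library's deviation on transcript GC content. GC content, lengths and exon overlaps come from GENCODE on GRCh38, matched by gene; no coordinates of counted genes are given.

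On counts simulated for AMI-5 against control (18230 genes tested), the blocked fit recovered 89.6%, 95.5% and 100% of genes changed 1.5-, 2- and 4-fold. It also called 26 unchanged genes, beside at most the 200 changed ones. This is a larger share of false calls than the threshold on adjusted p is meant to allow. The blocked calls in the data may thus hold more false ones than that threshold states. The fit without the block recovered 3%, 17.9% and 71.2%, with 0 unchanged genes called. The counts were drawn from the means and spread of the blocked fit, so the lead of the block was built in. The members called in the data changed less than 1.5-fold, and the recovery of such small changes was not simulated. Alternatives were DESeq2 1.42.0, its size factors, no filter, other gene or group sets, and leaving out each library. Per-library values are given for members called in a comparison, the member with the highest CPM in each role, and TFEB, TFE3, MCOLN1, LAMP1 and CTSD; from other lists, up to 4 genes with the lowest adjusted p. The members, lists and tests were chosen with earlier results of these data known, and the robust option of the fit was chosen after seeing the data.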

Additional observations from a re-analysis of the deposited data

How the results depend on the processing

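Without the replicate block 0 members were called in each comparison, with it 6 for AMI-5 against control and 2 for AMI-5 against AMI-1, and it changed no call for AMI-1 against control (0). With the block, DESeq2, its size factors, no filter on low counts and the fit without the robust option (added after seeing the data) kept the counts at 0, 6 and 2. Fitting only the groups compared, or all rows of the compound's own table, gave 14 for AMI-5 against control, and only the 2 groups gave 1 for AMI-5 against AMI-1. The GC correction gave 2 for AMI-1 and moved the AMI-5 median to -0.009. Leaving out 1 library at a time gave 0 to 13 members for AMI-5 against control and 0 to 13 for AMI-5 against AMI-1. For AMI-1 against control the blocked count over all genes then ran from 14 to 354, with 0 members called. The AMI-5 median then ran from -0.082 to -0.029 with the block and from -0.081 to 0.012 without it. Without the block the AMI-1 median ran from -0.017 to 0.079 and that of AMI-5 against AMI-1 from -0.12 to -0.021. Signs that changed belonged to genes that were not called: with AMI-1, CTSD ranged from -0.12 to 0.07 (0.01 with the GC correction), LAMP1 from -0.05 to 0.01 and MCOLN1 from -0.01 to 0.16 over the left-out libraries, and with AMI-5 CTSD came to 0.08 with the GC correction. The cause of these shifts was not tested. When 1 library is left out, its group's 2 libraries share the spread estimated from all groups. At these depths the least abundant members, such as CTSO, CTSK and CTSS, had intervals reaching past a 1.5-fold difference in at least 1 comparison.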

Other observations

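CTSL1, the older symbol of cathepsin L, a major cysteine protease of lysosomes, lay outside the symbol rule. It was at 70.7, 80.5 and 69.98 CPM in control, 75.4, 96.9 and 83.1 under AMI-1, and 75.6, 81.8 and 80.3 under AMI-5. It was higher than control in 3 of 3 pairs with each compound. The log2 fold change was 0.21 ± 0.06 for AMI-1 (edgeR adjusted p = 0.219) and 0.11 ± 0.06 for AMI-5 (adjusted p = 0.281), and both passed with the GC correction (0.23, adjusted p = 0.00213, and 0.17, adjusted p = 0.0126). CTSL2, the related cathepsin V, was at 5.76 to 8.95 CPM in control and had 0.05 ± 0.12 with AMI-5 (adjusted p = 0.823).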
